A study of Mus musculus with 2 samples.

Results

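Genes of macrophages, monocytes and related dendritic phagocytes were followed in skin cells sorted by an antibody against ZIP10, a zinc importer of the cell surface encoded by Slc39a10. The list holds 47 gene symbols, chosen by name with earlier results of these data known. Of these, 45 appear among the 23233 symbols of the deposited table. The symbols Spi1 and Pirb are listed there under the synonyms Sfpi1 and Lilrb3, whose values are given separately. Both groups came from ventral skin of C57BL/6 mice aged 7 days. The skin was digested with dispase and collagenase, stained with a polyclonal anti-ZIP10 antibody or normal rabbit IgG and with the dead-cell dye 7-AAD, and sorted into ZIP10-positive and ZIP10-negative cells. Titles name hair follicles as the source, yet the described preparation starts from all of the skin and names no leukocyte gate, so phagocyte RNA was measured within a mixture. Each group is 1 library of polyA RNA, and how many animals it holds is not stated. There is therefore no replicate and no test, and each difference describes these libraries.

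Macrophages and dendritic cells are phagocytes of bone marrow or embryonic origin that reside in the dermis, where they take up debris, immune complexes and microbes. Their growth and survival depend on colony-stimulating factor receptors, and the transcription factor PU.1 sets up much of their gene program. Fc gamma receptors bind antibody-coated particles and signal through small adaptors that carry a tyrosine-based activation motif (ITAM), while C1q opens the classical complement pathway.

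Values are RPKM as deposited, which divides reads by the length of the transcript and the size of the library. The table is higher as a whole in the ZIP10-positive library: the median of 9620 genes at 1 RPKM or more in both libraries was 1.97-fold higher there. Globin transcripts took 59.4% of all RPKM in ZIP10-negative and 3.46% in ZIP10-positive cells. For this reason differences are given relative to the median gene, as a log2 ratio with 1 RPKM added to each value, which understates the change of low genes. The level of Slc39a10 itself was 49.4 RPKM in positive and 11.1 RPKM in negative cells, in the direction of the labels. Depth was estimated at about 2.78e+06 and 2.71e+06 reads, so that 1 read on a transcript of 2000 bases is worth 0.205 RPKM in the ZIP10-negative library.

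Promoter sequences are shown for 2 gene clusters of the list: the Fc receptor genes of chromosome 1 and the C1q genes of chromosome 4. Fcgr2b, Fcgr4 and Fcgr3 lie next to each other on chromosome 1, and Fcer1g, the gene of the Fc receptor adaptor, lies some genes further on. C1qb, C1qc and C1qa are direct neighbours on chromosome 4. Each sequence holds the 250 bases before the annotated start that lies farthest upstream, written 5′ to 3′ on the gene's strand, from RefSeq on GRCm38.p6. This is not the mm9 build named for the deposited values, and no coordinate was carried between builds. Capitals mark matches to GAGGAAG or AGGAAGT on either strand, 2 overlapping spellings of the purine-rich sequence bound by PU.1 and other ETS factors.
Fcgr4, chr1:171018676-171018925 plus strand: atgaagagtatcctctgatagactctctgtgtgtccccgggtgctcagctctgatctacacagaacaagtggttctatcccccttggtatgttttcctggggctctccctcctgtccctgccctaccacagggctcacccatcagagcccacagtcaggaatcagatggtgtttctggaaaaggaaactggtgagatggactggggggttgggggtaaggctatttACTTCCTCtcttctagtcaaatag
Fcgr3, chr1:171059404-171059653 minus strand: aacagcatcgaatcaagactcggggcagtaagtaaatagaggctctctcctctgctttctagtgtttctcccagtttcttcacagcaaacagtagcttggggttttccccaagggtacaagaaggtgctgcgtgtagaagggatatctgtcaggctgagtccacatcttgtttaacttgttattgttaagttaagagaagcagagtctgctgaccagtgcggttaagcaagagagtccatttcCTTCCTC
Fcgr2b, chr1:170976072-170976321 minus strand: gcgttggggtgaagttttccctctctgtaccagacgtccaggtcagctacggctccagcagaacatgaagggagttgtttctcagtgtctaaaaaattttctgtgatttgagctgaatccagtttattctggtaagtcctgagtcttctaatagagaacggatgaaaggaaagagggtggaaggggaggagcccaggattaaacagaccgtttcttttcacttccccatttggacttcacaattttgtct
Fcer1g, chr1:171234350-171234599 minus strand: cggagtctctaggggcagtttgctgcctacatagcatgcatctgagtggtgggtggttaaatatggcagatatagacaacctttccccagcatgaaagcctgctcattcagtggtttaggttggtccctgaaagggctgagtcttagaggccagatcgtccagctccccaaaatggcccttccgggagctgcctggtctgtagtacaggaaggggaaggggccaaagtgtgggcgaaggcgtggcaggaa
C1qb, chr4:136886201-136886450 minus strand: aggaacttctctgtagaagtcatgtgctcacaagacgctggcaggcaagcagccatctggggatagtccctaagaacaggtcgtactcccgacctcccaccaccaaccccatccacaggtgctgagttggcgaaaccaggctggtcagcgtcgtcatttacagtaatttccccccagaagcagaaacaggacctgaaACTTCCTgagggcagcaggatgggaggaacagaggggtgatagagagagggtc
C1qc, chr4:136892915-136893164 minus strand: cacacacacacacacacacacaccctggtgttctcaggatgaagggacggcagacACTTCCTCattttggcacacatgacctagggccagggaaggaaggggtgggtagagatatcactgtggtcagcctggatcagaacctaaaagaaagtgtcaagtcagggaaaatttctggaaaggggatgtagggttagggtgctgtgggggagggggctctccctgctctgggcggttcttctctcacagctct

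The windows of Fcgr4, Fcgr3, C1qb and C1qc held 1 match each, beginning 24, 7, 53 and 195 bases before the start, and those of Fcgr2b and Fcer1g held none. RefSeq windows were at hand for 32 of the 47 listed symbols, with 40 start sites. GAGGAAG was found in 13 of these 40 windows, or 32.5%, and in 10.6% of all 32851 windows of the same length. AGGAAGT was found in 12 of them, or 30%, against 7.69% of all windows. In all 10 spellings of 6 motifs were searched on both strands, and these spellings were chosen with the values known. Among the other ETS spellings GAGGAAGT was in 10% of the phagocyte windows and 2.44% of all, GAGGAA in 55% and 23.3%, and GGAAGT in 37.5% and 19.7%. The MAF sequence TGCTGA was in 25% and 16.1%, the AP-1 sequence TGAGTCA in 10% and 4.46%, and the CREB sequence TGACGTCA in 2.5% and 1.55%. The C/EBP sequence TTGCGCAA was in 0 phagocyte windows and 0.164% of all, and TATAAA in 10% and 12.4%. The ETS spellings overlap one another. A match is a run of letters and not a measured binding site, and windows of 1 gene can overlap.

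Most phagocyte genes were higher in ZIP10-positive cells. As deposited, 44 of the 45 had the higher RPKM there and Ms4a6d was listed at 0 in both libraries, in a table where 11746 genes were higher in positive and 3260 in negative cells. Relative to the median gene, 37 of the 41 genes that reached 1 RPKM in a library lay above it, beside 6675 of all 12249. A level of 1 RPKM was reached in a library by 41 of the 45, of which 28 were 2-fold higher or more relative to the median gene and 0 were 2-fold lower. Of all 12249 genes at that level, 14.7% were 2-fold higher and 11.4% 2-fold lower. As deposited, 35 of the 41 were 2-fold higher and 0 lower, beside 44.1% and 3.55% of all genes. Their median log2 ratio relative to the median gene was 1.86, beside 0.094 for all genes at that level.

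That count needs care, because 25 of the 41 reached 1 RPKM in the ZIP10-positive library alone and none in the ZIP10-negative library alone. A gene admitted by its high library had to differ. The 16 genes at 1 RPKM or more in both libraries had a median log2 ratio of 0.52 relative to the median gene, and 4 of them were 2-fold higher and 0 lower. Of all genes at 1 RPKM in both, 9.98% were 2-fold higher and 9.99% lower. These 4 were Tyrobp, Sirpa, Cbr2 and Mgl2. In bulk libraries such as these, fewer cells of a type and less RNA per cell cannot be told apart.

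**Figure D1:**
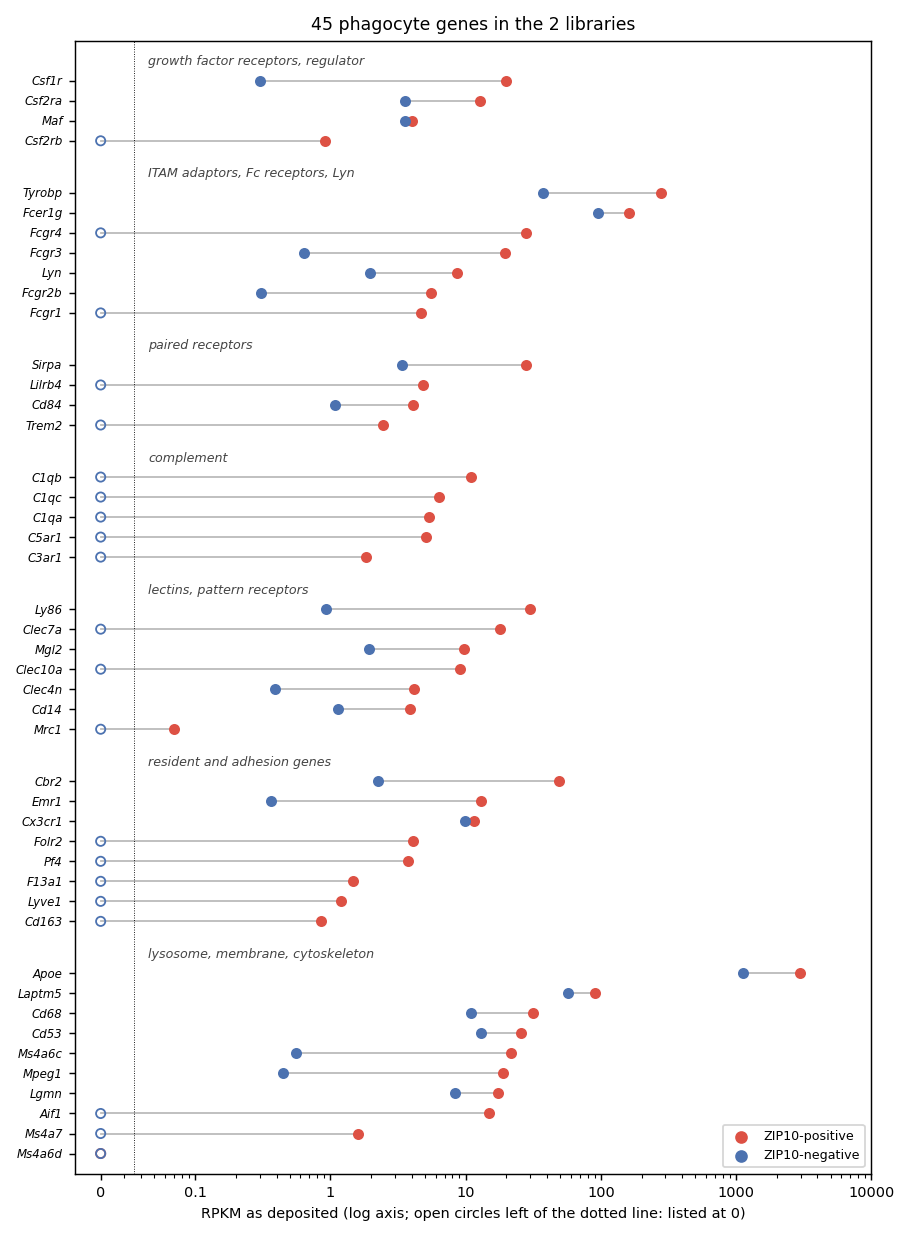
RPKM of each of the 45 phagocyte genes (log axis) in the ZIP10-positive library (red) and the ZIP10-negative library (blue), arranged by role, with 1 library per group and open circles for values listed at 0. The red point lies to the right for 44 genes, by a wide margin for Csf1r (19.9 against 0.301 RPKM) and a narrow one for Cx3cr1 (11.6 against 9.82 RPKM).

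Among the receptors for growth factors, Csf1r, which encodes the receptor for CSF1 and IL-34 and is a defining gene of macrophages, was at 19.9 RPKM in positive and 0.301 RPKM in negative cells. The ratio was 66.0, with an exact binomial 95% interval of 22.3 to 323, taking the smallest read numbers that yield that ratio, 203 and 3. If the true read numbers are these or multiples of them, such an interval is the widest. Where a whole-number ratio arises by accident, it can be too narrow. Csf2ra, the binding chain of the GM-CSF receptor, stood at 12.9 against 3.58 RPKM, a ratio of 3.597 with an interval of 2.04 to 6.70 from 59 and 16 reads. That interval lies above the 1.97-fold of the median gene, but the gene was not 2-fold higher relative to it, at a log2 ratio of 0.76. Csf2rb, the signalling chain of the same receptor, was at 0.905 RPKM against a listed 0. The CSF1 receptor gene was thus much further apart between the libraries than the GM-CSF receptor genes that could be compared.

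The transcription factors of the list parted. PU.1, listed as Sfpi1, reached 23.9 RPKM in positive cells, on about 122 reads, against a listed 0. Maf, a factor of macrophages that T cells also use, stood at 4.04 and 3.53 RPKM and lay below the median gene, at a log2 ratio of -0.62. As deposited, the Maf log2 ratio was 0.15, so its sign follows the scaling.

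The adaptors that carry the ITAM were the most abundant signalling genes of the list. Tyrobp, which encodes the adaptor DAP12 of TREM2 and other myeloid receptors, reached 279.8 RPKM in positive and 37.6 RPKM in negative cells. Its log2 ratio relative to the median gene was 1.90, or 3.72-fold. Fcer1g, the common gamma chain that serves Fc receptors on phagocytes, mast cells and NK cells, stood at 163 and 95.7 RPKM. Fcer1g thus lay just below the median gene, at a log2 ratio of -0.21, and above equality as deposited, at 0.76. These adaptors had the highest values of their group in both libraries, and Fcer1g exceeded Tyrobp in the ZIP10-negative library alone.

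The Fc gamma receptors that use this chain were much further apart than Fcer1g. Fcgr4, a high-activity receptor of monocytes, macrophages and neutrophils, reached 28.2 RPKM in positive cells against a listed 0. On about 82.6 reads, its exact Poisson 95% interval was 22.4 to 34.9 RPKM. Fcgr3 stood at 19.5 against 0.641 RPKM, a ratio of 30.5 with an interval of 11.6 to 113.6 from 125 and 4 reads. The estimate from transcript length is lower, at 62.3 and 1.99 reads, so that interval may be too narrow. Fcgr1, the high-affinity receptor, stood at 4.67 RPKM against a listed 0. All of these were low or listed at 0 in ZIP10-negative cells, although their shared chain Fcer1g was at 95.7 RPKM there.

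Fcgr2b, the inhibitory Fc gamma receptor, had the same direction as the activating receptors beside it on chromosome 1. It stood at 5.54 against 0.306 RPKM, a ratio of 18.1, with a log2 ratio of 1.79 relative to the median gene. Lyn, a Src-family kinase that phosphorylates such receptors, stood at 8.67 against 1.96 RPKM and stayed just under 2-fold relative to the median gene, at a log2 ratio of 0.93. In this group of 7 genes 5 were 2-fold higher relative to the median gene, beside 14.7% of all genes. The 4 Fc gamma receptor genes reached 1 RPKM in positive cells alone and so had to differ. Of the 3 genes at that level in both libraries 1, Tyrobp, was 2-fold higher, beside 9.98% of all such genes. Reads of Fcgr2b and Fcgr3 can be split between these similar genes, which leaves each value uncertain.

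Paired receptors, which set the threshold of myeloid activation, were higher in ZIP10-positive cells for each of the 4 genes listed by name. Sirpa, the inhibitory receptor for CD47, stood at 27.8 against 3.36 RPKM, a log2 ratio of 1.86 relative to the median gene. Lilrb4, another inhibitory receptor, stood at 4.88 RPKM against a listed 0, and Trem2, a receptor for lipids and apolipoproteins that signals through Tyrobp, at 2.44 RPKM against a listed 0. Trem2 rested on about 6.02 reads. Cd84, an adhesion receptor of the SLAM family, stood at 4.06 against 1.08 RPKM, a log2 ratio of 0.63 relative to the median gene. Lilrb4 and Trem2 reached 1 RPKM in positive cells alone and so had to differ. Of the 2 genes at that level in both libraries 1, Sirpa, was 2-fold higher, beside 9.98% of all such genes. The gene of PIR-B, listed as Lilrb3, stood at 4.54 against 0.146 RPKM.

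Complement genes of the list were all listed at 0 in the ZIP10-negative library. C1qa, C1qb and C1qc, which encode the chains of C1q and are made chiefly by macrophages, stood at 5.32, 10.9 and 6.34 RPKM in ZIP10-positive cells. Their exact Poisson intervals of 2.78 to 9.20, 7.17 to 15.9 and 3.74 to 10.1 RPKM overlap. C5ar1, the receptor for C5a on neutrophils and macrophages, stood at 5.07 RPKM and C3ar1, the receptor for C3a, at 1.84 RPKM. A listed 0 may stand for a failed estimate: Psmg4 and Ndufaf3, used by most cells, had 69.5 and 24.97 RPKM in positive cells and also a listed 0 in negative cells. No fold is therefore given for these genes.

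Lectins and pattern receptors had the same direction. Ly86, which encodes MD-1, the partner of the receptor RP105, stood at 29.9 against 0.929 RPKM, a ratio of 32.2 with an interval of 5.39 to 1310 from the fewest reads, 33 and 1. Clec7a, the beta-glucan receptor Dectin-1, reached 17.8 RPKM on about 103 reads, against a listed 0. Clec4n, the fungal mannan receptor Dectin-2, stood at 4.15 against 0.392 RPKM. With 1 RPKM added, Ly86 and the Dectins each passed the 2-fold line drawn from the median gene. They reached 1 RPKM in positive cells alone, however, and so had to differ. The listed 0 of Clec7a may stand for a failed estimate, so no fold is given for it. In this group 2 genes, Mgl2 and Cd14, were at 1 RPKM or more in both libraries. Mgl2 passed that line at a log2 ratio of 1.09 and Cd14 did not, at 0.54. Of all such genes 9.98% passed it.

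The galactose-type lectins Clec10a and Mgl2 are near-identical neighbours of dermal macrophages and dendritic cells and can share reads. They stood at 9.02 and 9.65 RPKM in ZIP10-positive cells, and at a listed 0 and 1.91 RPKM in ZIP10-negative cells. Cd14, the co-receptor for lipopolysaccharide, stood at 3.89 against 1.14 RPKM, a ratio of 3.41 with an interval of 0.650 to 33.7 from the smallest read numbers, 7 and 2, where the estimate from transcript length is 15.6 and 4.45 reads. Mrc1, the mannose receptor of resident macrophages, stood at 0.0702 RPKM, about 1.01 reads, against a listed 0, and is not compared.

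Among genes of resident macrophages, Emr1, Cbr2 and Cx3cr1 exceeded 10 RPKM in positive cells and the other 5 did not reach 5 RPKM. Emr1, which encodes the macrophage antigen F4/80, stood at 13.1 against 0.363 RPKM, a ratio of 36.1 with an interval of 6.09 to 1464 from the fewest reads, 37 and 1. Cbr2, a carbonyl reductase, stood at 49.2 against 2.25 RPKM, a ratio of 21.9 with an interval of 9.09 to 68.6 from 112 and 5 reads. Cbr2 was the most abundant gene of the list after Apoe, Tyrobp, Fcer1g and Laptm5 in ZIP10-positive cells.

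The remaining resident genes were all listed at 0 in ZIP10-negative cells. Folr2, a folate receptor, stood at 4.10 RPKM and Pf4, a platelet chemokine that tissue macrophages also express, at 3.74 RPKM. F13a1, a chain of clotting factor XIII, stood at 1.48 RPKM, Lyve1, a hyaluronan receptor, at 1.20 RPKM and Cd163, a haemoglobin scavenger receptor, at 0.854 RPKM. These rested on about 4.04 to 15.4 reads each. Lyve1 is also a marker of lymphatic vessels and is 1 of 6 genes in that marker list. Pdpn was at 14.0 against 3.53 RPKM, Ccl21a at 4.72 against 0.325 RPKM, the factor Prox1 at 0.365 against 0.187 RPKM and Reln at 0.0625 against 0.192 RPKM, while Flt4 was listed at 0 in both libraries. Of the 3 that reached 1 RPKM, Lyve1 among them, Ccl21a exceeded the 2-fold line and 0 were lower. The part of lymphatic cells in the Lyve1 value was not tested.

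Cx3cr1, the fractalkine receptor of monocytes, macrophages, NK cells and some T cells, stood apart from the others. Its level was 11.6 RPKM in positive and 9.82 RPKM in negative cells, a ratio of 1.18 with an interval of 0.790 to 1.78 from 57 and 47 reads. That interval includes equal values and lies below the 1.97-fold of the median gene. The log2 ratio relative to the median gene was -0.67, the lowest of the 41 genes, and 0.22 as deposited.

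**Figure D2:**
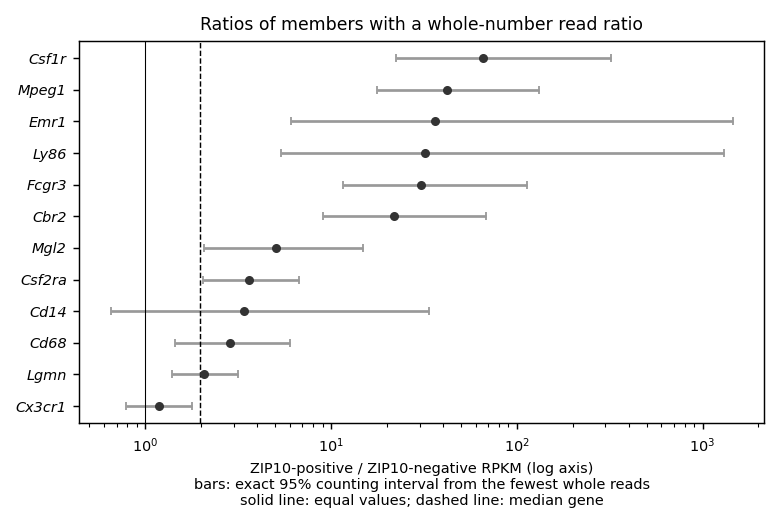
Ratio of ZIP10-positive to ZIP10-negative RPKM (log axis) for the 12 phagocyte genes whose values stand in a whole-number read ratio, with exact binomial 95% intervals that cover counting error only. Intervals of Csf1r, Mpeg1, Emr1, Ly86, Fcgr3 and Cbr2 lie well above the median gene at 1.97 (dashed), and that of Cx3cr1, 0.790 to 1.78, lies below it.

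Lysosomal and membrane genes divided into those far apart and those close to the median gene. Mpeg1, the pore-forming protein perforin-2 of macrophages, stood at 18.8 against 0.445 RPKM, a ratio of 42.1 with an interval of 17.8 to 131 from 216 and 5 reads. Aif1, the actin-binding protein IBA1, stood at 15.0 RPKM against a listed 0. Ms4a6c, a membrane protein of the MS4A cluster, stood at 21.8 against 0.562 RPKM and its neighbour Ms4a7 at 1.61 RPKM against a listed 0, while Ms4a6d was listed at 0 in both. Ms4a6c and Ms4a6d are close relatives and their single values are uncertain.

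The other 5 genes of this group were close to the median gene. Apoe, the apolipoprotein of macrophages that skin cells of several kinds also express, was the most abundant of the list at 2975 and 1126 RPKM, a log2 ratio of 0.42 relative to the median gene. Cd68, a lysosomal glycoprotein, stood at 31.3 against 11.0 RPKM, a ratio of 2.85 with an interval of 1.44 to 6.02 from the smallest read numbers, 35 and 12. Lgmn, the lysosomal protease legumain, stood at 17.4 against 8.38 RPKM, at a log2 ratio of 0.071, and Cd53, a tetraspanin of leukocytes, at 25.6 against 12.9 RPKM, at 0.0086. Laptm5, a lysosomal protein of all blood lineages, stood at 90.3 against 57.6 RPKM, at -0.32, and at 0.64 as deposited. When the 50 most abundant genes were left out of the scaling, Lgmn and Cd53 turned to -0.22 and -0.29.

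**Figure D3:**
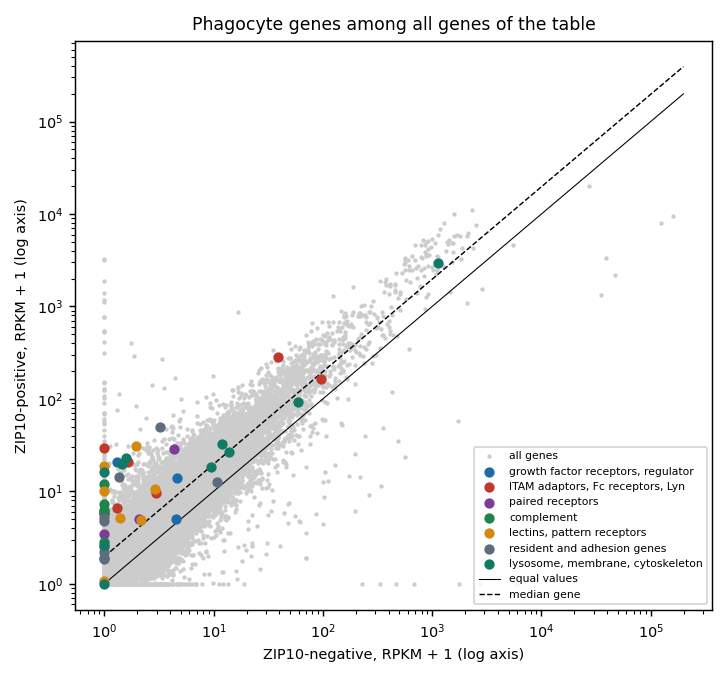
ZIP10-positive against ZIP10-negative RPKM, each plus 1 and on log axes, for all 23233 genes (grey) and the 45 phagocyte genes (coloured by role), with lines for equal values and for the median gene at 1.97-fold. Many phagocyte genes stand on the left edge, listed at 0 in ZIP10-negative cells, while Apoe, Laptm5, Fcer1g, Cd53 and Lgmn follow the median gene.

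Many of these genes had no value above 0 in ZIP10-negative cells. There 21 of the 45 were listed at 0, and in positive cells 1, Ms4a6d. Of the 44 genes above 0 in ZIP10-positive cells 20 were listed at 0 in ZIP10-negative cells, beside 10.1% of all 14342 such genes. In the other direction it was 0 of 24, beside 4.9% of all 13558 genes above 0 in negative cells. Low genes are listed at 0 more often, so the share was also set out by level. From 1 to 5 RPKM in ZIP10-positive cells 9 of 13 phagocyte genes were listed at 0, beside 10.3% of all genes. From 5 to 20 RPKM it was 7 of 17, beside 2.36%, and at 20 RPKM or more 1 of 11, Fcgr4, beside 1.34%. Of the 24 genes at 1 RPKM in a library and above 0 in both, 12 were 2-fold higher relative to the median gene, beside 11.6% of all 11505 such genes.

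**Figure D4:**
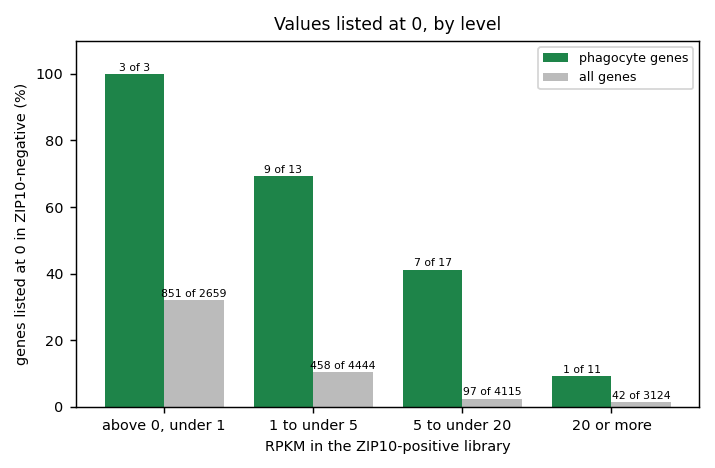
Share of genes listed at 0 in the ZIP10-negative library (percent, bars from 0) by their RPKM in the ZIP10-positive library, for the 45 phagocyte genes (green, leaving out Ms4a6d) and all genes (grey). The share is higher among phagocyte genes at each level, with 9 of 13 against 10.3% of all genes at 1 to 5 RPKM.

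Genes that work with these receptors but are no part of the list were counted in the same way, beside the 14.7% higher and 11.4% lower of all genes. Relative to the median gene, 2 of 14 measured genes of ITAM signalling were 2-fold higher and 3 lower, with a median of -0.42. Ptpn6, the phosphatase recruited by inhibitory receptors, stood at 20.9 against 16.2 RPKM, and Hcst, the adaptor DAP10 of NK and T cell receptors, at 6.04 against 24.8 RPKM. From the fewest reads, the interval of the Hcst ratio was 0.00495 to 2.46. It includes equal values and the 1.97-fold of the median gene. Of 12 measured transcription factors of myeloid cells 2 were higher and 2 lower. The shares of higher genes in both lists are near that of all genes and are no result about them. Cebpa and Cebpb, which skin epithelium also expresses, stood at 296 and 146 RPKM against 217 and 47.6 RPKM, and Irf5 at 16.3 against 1.85 RPKM.

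In the wider complement system 6 of 13 measured genes were 2-fold higher and 1 lower. Cfp, which encodes properdin and is made by myeloid cells, stood at 31.6 against 0.279 RPKM. Itgb2, the beta chain of complement receptors CR3 and CR4, stood at 15.0 against 1.66 RPKM, while Serping1, the C1 inhibitor of many cell types, stood at 33.1 against 21.9 RPKM. Of 7 measured growth factors and receptors of myeloid cells 2 were higher and 1 lower. Il34, the CSF1R ligand of keratinocytes, stood at 5.92 against 5.34 RPKM, and Flt3l, the ligand for dendritic cell growth, at 5.36 against 9.30 RPKM. Relative to the median gene, the log2 ratio was -0.70 for Il34 and 3.41 for its receptor gene Csf1r.

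Markers of other cells moved with the phagocyte genes, and their part in these values was not tested. Several listed genes, among them Fcgr3, Fcgr4, C5ar1 and Clec7a, are also expressed by neutrophils. All 11 measured neutrophil genes were 2-fold higher relative to the median gene, with a summed level of 1720 against 16.8 RPKM, but 10 of them reached 1 RPKM in positive cells alone and so had to differ. Monocyte genes had 11 of 15 higher and 1 lower, 7 of the 15 reaching 1 RPKM in positive cells alone, and a sum of 1439 against 64.5 RPKM, with Lyz2 at 772 RPKM against a listed 0. Mast cell genes, which share Fcer1g and Lyn, had 7 of 8 higher and a sum of 310.5 against 14.5 RPKM. Of these 8, 3 reached 1 RPKM in positive cells alone. The neutrophil granule genes Elane and Mpo were listed at 0 in both libraries.

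Markers of resident macrophages and dendritic cells outside the list were also measured, beside the 14.7% higher and 11.4% lower of all genes. Sums are as deposited, where the median gene was 1.97-fold higher in positive cells. Of 9 measured resident macrophage genes outside the list 2 were 2-fold higher and 0 lower, with a sum of 79.7 against 36.3 RPKM over all 17. Of these 9, 3 reached 1 RPKM in positive cells alone. Axl and Gas6, a receptor and ligand of apoptotic cell uptake, stood at 23.4 and 15.8 against 20.6 and 6.01 RPKM, and Cd209d at 10.9 RPKM against a listed 0. Of 7 measured dendritic genes 2 were higher and 0 lower, with a sum of 45.5 against 23.5 RPKM. Of these 7, 3 reached 1 RPKM in positive cells alone. The 4 at that level in both libraries were Fscn1, Batf3, Dpp4 and Itgax, and 0 of them were 2-fold higher. Their log2 ratios relative to the median gene were -0.43, 0.57, 0.36 and -0.026. Langerhans genes and class II genes, the latter shared by dendritic cells and macrophages, had 8 of 8 higher and a sum of 1247 against 146.5 RPKM. Of these 8, 1 reached 1 RPKM in positive cells alone. Zbtb46, a defining factor of conventional dendritic cells, was at 1.003 RPKM against a listed 0.

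T and NK cell genes ran the other way. All 14 measured were 2-fold lower relative to the median gene, with a median of -2.57 and a sum of 144 against 883 RPKM. Of these 14, 3 reached 1 RPKM in negative cells alone and so had to differ. The 11 at that level in both libraries were all 2-fold lower, beside 9.99% of all such genes. Pan-leukocyte genes had 2 of 14 higher and 2 lower, beside 14.7% and 11.4% of all genes, with a median of -0.41. That share of higher genes is near that of all genes and is no result about them. Their sum was 857 against 465.5 RPKM as deposited, where the median gene was 1.97-fold higher in positive cells. Beside the same shares of all genes, keratinocyte genes had 2 of 11 higher and 0 lower, and fibroblast genes 2 of 10 higher and 2 lower. Erythroid genes were lower in 7 of 7, at a sum of 16377 against 283754 RPKM. Of these 7, 1 reached 1 RPKM in negative cells alone. The part of any of these cells in the phagocyte values was not tested.

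**Figure D5:**
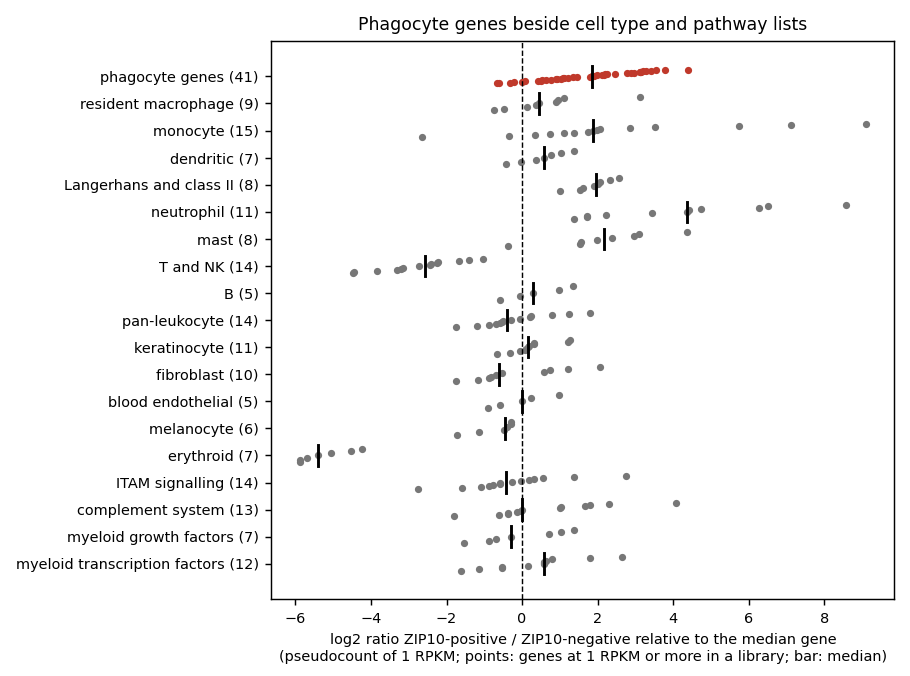
Log2 ratio of ZIP10-positive to ZIP10-negative RPKM relative to the median gene (dashed, at 0; 1 RPKM added) for genes that reach 1 RPKM in a library, with the median of each list as a bar and the number of genes in brackets. The phagocyte genes spread from -0.67 to 4.40 around a median of 1.86, to which 25 of the 41 contribute through the ZIP10-positive library alone, while T and NK genes have a median of -2.57.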

How the data were processed

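The authors deposited RPKM values for 2 libraries in 1 table keyed by gene symbol. Per the submitters' processing notes the tools were Cufflinks, TopHat and cutadapt, on the build mm9. Versions, annotation and counting strand are not given there. The labels' protocols give 10 ng of RNA per library and single-end reads of 50 bases. The 47 symbols and all lists were chosen with earlier results of these data known. Named are the listed genes, Slc39a10 and up to 4 of the most abundant genes of each other list, and of lists of 6 genes or fewer all may be named. Psmg4, Ndufaf3, Elane, Mpo and Zbtb46 were chosen after their values were seen.

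Here, log2((positive + 1)/(negative + 1)) was computed after dividing the median log2 ratio of genes at 1 RPKM or more in both libraries, 0.98, between the libraries. Counts of higher and lower genes use 2-fold and a minimum of 1 RPKM in either library. Scaling moved the split of all genes from 5405 higher and 435 lower as deposited to 1799 and 1398.

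Whole reads were sought as ratios of whole numbers times 0.9755, within 0.0012%; 64.6% of 1389 low genes had such a ratio with numbers up to 20. The fewest reads may be a fraction of the true ones. The search stopped once the fractions tried covered 5% of ratios, so some matches can be accidental. To estimate depth, 436 genes with a single transcript were used, each shortened by 199 bases; 23.6% fell close to the commonest value. Read numbers for single genes use the longest coding transcript and are rough: for Fcgr3 the estimate of 62.3 lies below the smallest whole number, 125. That length, and the motif spellings, were chosen after values were seen. Lengths (GENCODE vM21) and promoters are on GRCm38, not mm9. Intervals are 95% and cover counting error only, since reads carry no molecular identifiers. Computations ran in Python 3.11.15 (scipy 1.17.1, numpy 2.4.6, pandas 2.3.3, matplotlib 3.10.9) and were tested on simulated data.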

Additional observations from a re-analysis of the deposited data

How the results depend on the processing

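No paired analysis was possible because each group has 1 library, and no library could be left out. No alternative turned a 2-fold higher phagocyte gene to lower, over 41 genes and 339 values. The count of 28 genes 2-fold higher relative to the median gene, beside 14.7% of all genes, was 25 to 35 under the other scalings. The share of all genes was 8.99% at the count of 25 and 44.1% at the count of 35, as deposited. Under each scaling 25 genes were higher. The count of 28 fell to 14 with 5 RPKM added in place of 1, beside 5.61% of all genes. With genes above 0 in both libraries only, which removes the listed zeros, it was 12 of 24, beside 11.6%. The count of 35 as deposited became 21 with 5 RPKM added, beside 22.7% of all genes. It was 18 of 24 with genes above 0 in both, beside 41.8%, and 23 of 28 at a minimum of 5 RPKM, beside 56.3%. The count of 0 lower became 1, Cx3cr1 at -1.05, without globin genes and Rn45s, beside 19.2% of all genes. The median of 1.86 was 3.64 with 0.1 RPKM added, 0.66 with 5 and 1.01 for genes above 0 in both, so its size depends on the value added to each zero. Relative to the median gene, the other scalings moved the zero point from 0.98 to 1.07, 1.29 and 1.395. Under each of these, Lgmn and Cd53 turned below 0. Fcer1g, Laptm5, Cx3cr1 and Maf lay below 0 under every scaling except as deposited, where they lay above it. The sign of these 6 genes thus followed the scaling. Taking Sfpi1 and Lilrb3 as listed genes gave 30 of 43 higher, and leaving out genes with near-identical relatives 22 of 35. Both stand beside 14.7% of all genes and were chosen after seeing the data. Depth limits genes under about 1 RPKM, where Mrc1, Cd163 and Csf2rb rest on about 1.01 to 11.8 reads.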
